A study of Mus musculus with 9 samples.

Results

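The genes of the translation initiation factors were examined for the histone deacetylases Hdac1 and Hdac2 in mouse haemogenic endothelium, the endothelial cells from which the first blood cells arise. The 56 genes are all protein-coding genes on mm10 whose symbol starts with Eif followed by a digit from 1 to 6, out of 21887 protein-coding genes. They fall by symbol into 5 Eif1, 15 Eif2, 14 Eif3 and 17 Eif4 genes, with 5 Eif5 and Eif6 genes. The symbol also brings in regulators that are not subunits of a factor, such as the Eif2ak kinases and the eIF4E-binding proteins, and 42 of the 56 are initiation factor genes in the strict sense.

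Translation initiation assembles a ribosome at the start codon of an mRNA. The factor eIF2 brings the initiator tRNA to the small ribosomal subunit and is recharged with GTP by eIF2B, while stress kinases phosphorylate eIF2 and slow this exchange. The large complex eIF3 organises the small subunit, and eIF4F, made of the cap-binding protein eIF4E, the scaffold eIF4G and the helicase eIF4A, recruits the mRNA. eIF5 and eIF5B act at the later steps of GTP hydrolysis and subunit joining. Their genes are used in nearly all cells, and Hdac1 and Hdac2 are enzymes that remove acetyl groups from histones and are found at many active promoters.

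Chromatin immunoprecipitation with sequencing was done on haemogenic endothelium grown in culture from 3 embryonic stem cell lines of the C57BL/6 strain, named Bry, Hd1_loxlox and Hd2lox, with no treatment recorded. Passages 16 to 19 were used for Bry and 25 to 30 for Hd1_loxlox and Hd2lox, and the labels do not say that a recombinase had acted on the lines with lox in their names. Each line had 1 library with an Hdac1 antibody from Diagenode, 1 with an Hdac2 antibody from abcam and 1 input, so each antibody had n = 3 lines. The 6 peak lists were used here, the 3 inputs were not, and peak positions cannot show whether the cells expressed endothelial or blood markers.

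A gene counted as bound in a list when a peak overlapped the 1000 bp on either side of one of its annotated ends. The lists held 5161 to 9279 peaks and give only positions, so the depth behind a peak is unknown and an absent peak does not show absent protein. The Hd1_loxlox Hdac2 list stood apart, with end peaks at 2.71% of all protein-coding genes against 13.5% to 34.4% in the others. Genes of chromosome X were nearly absent from the lists (0% to 5.8% of 966 X-linked genes per list), which touches the 2 X-linked members. No line was replicated within an antibody, so line and library cannot be told apart.

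Promoter sequences are shown first for members that carried both proteins in several lists and for members that carried neither, since they are the contrast on which the results turn. Each is the 250 bases before the RefSeq start (GRCm38.p6), read in the direction of transcription. Capitals mark matches on either strand to the GC box GGGCGG, the NF-Y motif CCAAT, the E-box CACGTG, the ETS motif CCGGAA, the YY1 motif AAGATGG, the NRF1 core GCATGCG and the CGCG element core TCGCGAG. The first 4 genes had end peaks in 5 lists, and the last 3 had none in any list.
Eif3a (chr19:60790694-60790943, minus strand): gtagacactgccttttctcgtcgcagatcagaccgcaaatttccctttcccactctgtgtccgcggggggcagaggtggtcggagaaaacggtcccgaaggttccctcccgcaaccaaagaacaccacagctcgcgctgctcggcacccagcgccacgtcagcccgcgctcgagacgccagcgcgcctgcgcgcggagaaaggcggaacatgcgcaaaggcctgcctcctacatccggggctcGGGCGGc
Eif5 (chr12:111537851-111538100, plus strand): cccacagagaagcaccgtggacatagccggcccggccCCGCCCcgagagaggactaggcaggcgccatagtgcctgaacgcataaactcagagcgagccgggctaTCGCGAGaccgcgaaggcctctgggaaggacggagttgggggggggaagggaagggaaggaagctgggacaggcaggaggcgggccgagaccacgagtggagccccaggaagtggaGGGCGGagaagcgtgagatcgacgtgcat
Eif1b (chr9:120492356-120492605, plus strand): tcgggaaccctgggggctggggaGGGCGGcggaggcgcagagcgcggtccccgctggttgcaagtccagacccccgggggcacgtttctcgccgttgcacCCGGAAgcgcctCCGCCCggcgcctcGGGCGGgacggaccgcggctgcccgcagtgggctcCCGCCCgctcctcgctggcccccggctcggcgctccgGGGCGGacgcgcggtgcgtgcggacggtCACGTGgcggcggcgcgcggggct
Eif5b (chr1:37997760-37998009, plus strand): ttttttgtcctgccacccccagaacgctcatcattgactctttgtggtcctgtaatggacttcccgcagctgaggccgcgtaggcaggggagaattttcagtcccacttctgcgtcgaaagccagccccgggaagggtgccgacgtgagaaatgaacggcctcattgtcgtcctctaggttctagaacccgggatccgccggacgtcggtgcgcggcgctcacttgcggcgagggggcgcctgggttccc
Eif2s1 (chr12:78861822-78862071, plus strand): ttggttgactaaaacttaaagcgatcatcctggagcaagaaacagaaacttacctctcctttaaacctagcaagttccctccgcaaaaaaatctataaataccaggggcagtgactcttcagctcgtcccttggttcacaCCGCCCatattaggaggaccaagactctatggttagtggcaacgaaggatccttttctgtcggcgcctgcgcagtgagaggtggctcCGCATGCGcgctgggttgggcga
Eif1ax (chrX:159371928-159372177, plus strand): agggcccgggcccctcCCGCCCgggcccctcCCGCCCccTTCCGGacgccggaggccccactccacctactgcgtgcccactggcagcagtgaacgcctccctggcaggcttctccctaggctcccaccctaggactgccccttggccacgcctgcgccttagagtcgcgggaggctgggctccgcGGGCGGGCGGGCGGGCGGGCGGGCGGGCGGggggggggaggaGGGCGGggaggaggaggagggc
Eif2ak3 (chr6:70844265-70844514, plus strand): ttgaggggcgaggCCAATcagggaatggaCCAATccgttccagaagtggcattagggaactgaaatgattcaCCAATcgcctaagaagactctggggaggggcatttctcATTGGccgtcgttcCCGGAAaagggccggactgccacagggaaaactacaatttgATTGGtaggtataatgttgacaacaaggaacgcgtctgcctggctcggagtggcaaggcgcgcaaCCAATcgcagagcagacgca

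Eif3a encodes the largest eIF3 subunit, Eif5 the GTPase activator of eIF2, Eif1b a close relative of the start-codon factor eIF1, and Eif5b the GTPase of subunit joining. Eif2s1 encodes the alpha subunit of eIF2, which the stress kinases phosphorylate, Eif1ax the X-linked eIF1A, and Eif2ak3 the endoplasmic reticulum stress kinase PERK. Matches occurred in both groups. The Eif5b window held no match to any motif although the gene was bound in 5 lists, and the Eif2ak3 window held 6 NF-Y matches. The Eif1ax window held 10 GC boxes, counting overlapping matches, and the gene was bound in no list. It lies on chromosome X, where 89.3% of genes were in no list, so its lack of peaks cannot be read against its motifs. The Hdac1 peaks of Bry, Hd1_loxlox and Hd2lox covered all 250 bases shown for Eif3a, Eif5 and Eif5b, while the Hd2lox Hdac2 peak covered 152, 126 and 191 of them. Eif1b differed, with all 250 bases in its Hd2lox Hdac2 peak and 181 in its Hd1_loxlox Hdac1 peak. The Hd2lox Hdac2 list had the lowest median peak width of the 6 lists, 822 bp.

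Most initiation factor genes carried Hdac1. The Bry Hdac1 list had end peaks at 38 of the 56 genes, the Hd1_loxlox list at 42 and the Hd2lox list at 23, or 67.9%, 75% and 41.1%, where 31.9%, 31.7% and 24.3% of all protein-coding genes were called. Hdac2 peaks lay at 34 members in Bry (60.7%, background 34.4%), 8 in Hd2lox (14.3%, background 13.5%) and 0 in Hd1_loxlox (background 2.71%). The Hdac2 share thus stood above its background in Bry and near it in Hd2lox. Hdac1 was present in at least 2 lines at 37 members (66.1%, against 30.2% of all genes) and in all 3 lines at 19 (33.9%, against 14.6%). At least 1 line had it at 47 members (83.9%, against 43.2%). Hdac2 was present in at least 2 lines at 7 members (12.5%, against 10.6%), and these were the same 7 with Hdac2 in both Bry and Hd2lox (against 9.61%). The mean was 34.3 ± 10.02 members for Hdac1 and 14.0 ± 17.8 for Hdac2 (SD, n = 3 lists each), and the difference of 20.3 was close to the spread between the Hdac2 lists. It was 4 in Bry, 42 in Hd1_loxlox and 15 in Hd2lox. It fell to 9.5 without the line Hd1_loxlox and to 13.3 without its Hdac2 list alone, and the counts of the antibodies overlapped.

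**Figure D1:**
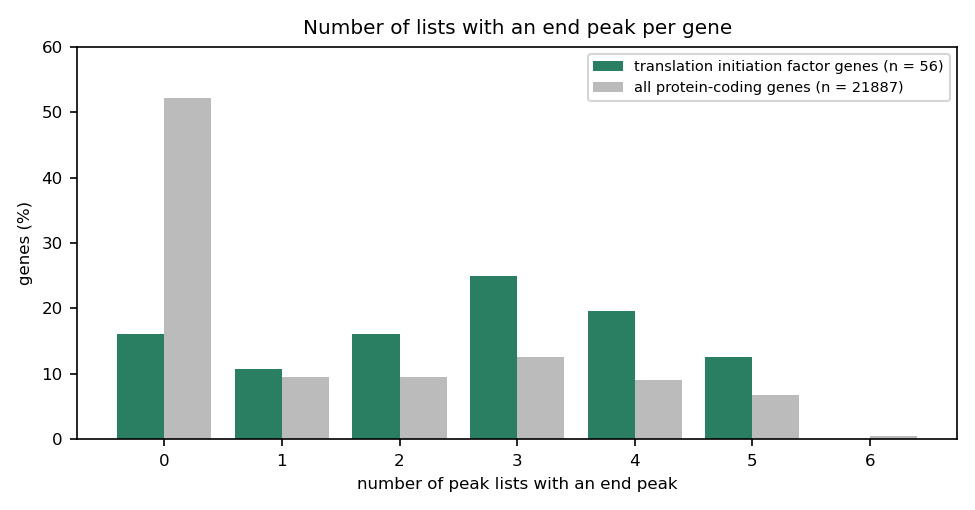
Share of genes (y axis, %) by the number of peak lists, from 0 to 6, in which the gene had an end peak (x axis), for the 56 initiation factor genes (green) and all 21887 protein-coding genes (grey). Of the members 16.1% were in no list against 52.2% of all genes, and none was in all 6.

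The 56 genes showed a few recurrent combinations of lists. The commonest were these: 11 members had Hdac1 in all 3 lines with Hdac2 in Bry only (19.6%, against 6.23% of all genes), and 11 had Hdac1 in Bry and Hd1_loxlox with Hdac2 in Bry only (19.6%, against 8.45%). The first set held Eif1ad, Eif2ak1, Eif3b, Eif3f, Eif4a2, Eif4e, Eif4ebp1, Eif4g1, Eif4g2, Eif4h and Eif5a. The second held Eif2a, Eif2b1, Eif2b2, Eif2b4, Eif3d, Eif3h, Eif3i, Eif3m, Eif4a1, Eif4a3 and Eif4b. A further 7 members were in every list but the Hd1_loxlox Hdac2 list (12.5%, against 6.24%, or 6.71% for any 5 lists): Eif1a, Eif1b, Eif3a, Eif4e3, Eif4ebp2, Eif5 and Eif5b. Hdac1 without Hdac2 in any list was found at 12 members (21.4%, against 8.35%), and Hdac2 without Hdac1 in any list at 0 (against 4.6%). Hdac1 in Hd2lox without either other line was found at 0 members (against 4.96%), and Hdac1 in Hd1_loxlox without either other line at 6 (10.7%, against 3.57%). No member was in all 6 lists (against 0.448%), and 9 (16.1%, against 52.2%) were in none.

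**Figure D2:**
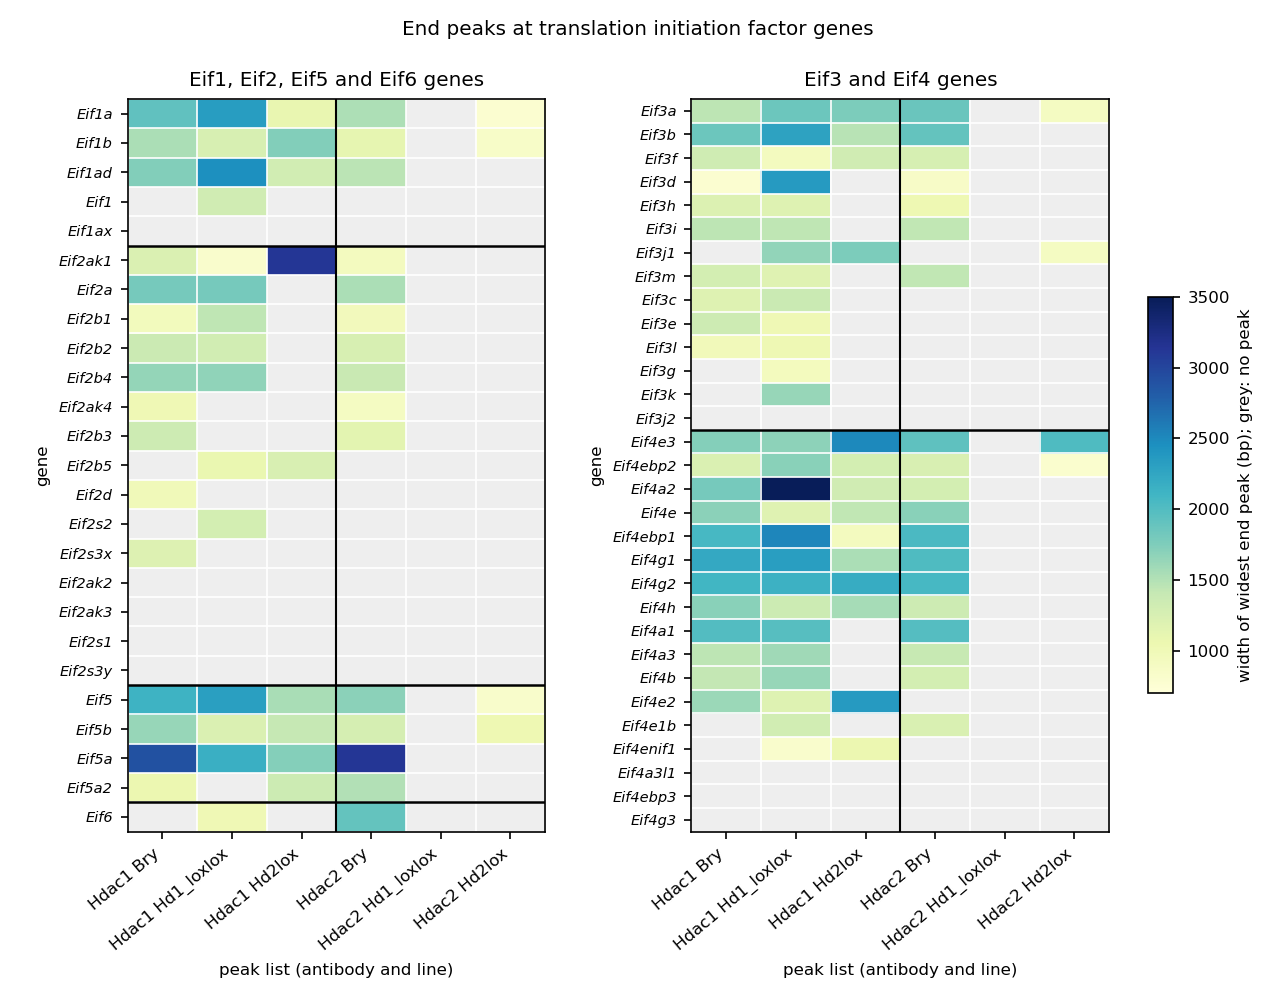
Width in bp (colour) of the widest end peak of each of the 56 genes (rows, grouped by symbol and ordered by the number of lists) in each of the 6 peak lists (columns), with grey where the list had no end peak. The Hd1_loxlox Hdac2 column is empty, and most Hd2lox Hdac1 peaks lie in the Eif4 and Eif5 blocks.

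The eIF1 genes were divided between well-covered and empty members. Eif1a, an autosomal eIF1A gene, and Eif1b (chromosome 9, 120492606-120495327) were each in 5 lists. The Eif1b peaks were 1542 bp (Bry), 1248 bp (Hd1_loxlox) and 1732 bp (Hd2lox) wide for Hdac1. Its Hdac2 peaks were 1109 bp (Bry) and 852 bp (Hd2lox) wide. Both Hdac2 peaks were narrower than each Hdac1 peak, though the Hd2lox one was at percentile 60.3 of the widths in its own list. Eif1 itself, the gene for the main start-codon factor, had a peak in the Hd1_loxlox Hdac1 list alone (1313 bp), and Eif1ax had none. The Eif1a and Eif1ad peaks also reached the ends of the adjoining genes Tmed7 and Banf1 and cannot be assigned to a single gene.

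Among the 15 Eif2 genes, those of eIF2 and of the exchange factor eIF2B were counted apart. Of the 4 genes for the eIF2 trimer, the alpha subunit gene Eif2s1 (chromosome 12, 78862072-78887010) and the Y-linked gamma gene Eif2s3y had no end peak. The beta gene Eif2s2 was in the Hd1_loxlox Hdac1 list (1282 bp) and the X-linked gamma gene Eif2s3x in the Bry Hdac1 list (1193 bp). None was bound in 2 lists. Of all protein-coding genes 52.2% were in no list and a further 9.54% in 1 list. Of the 5 eIF2B genes, 4 had Hdac1 in at least 2 lines, where 30.2% of all genes did: Eif2b1, Eif2b2 and Eif2b4 in Bry and Hd1_loxlox, and Eif2b5 in Hd1_loxlox and Hd2lox. Bry Hdac2 lay at Eif2b1, Eif2b2, Eif2b3 and Eif2b4, and at 34.4% of all genes. With so few genes, and with 2 of the 4 trimer genes on sex chromosomes, this contrast is a count and was not tested.

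The kinases of eIF2 also differed among themselves. Eif2ak1 (chromosome 5, 143817792-143902717), the haem-regulated kinase of red blood cell precursors, had Hdac1 peaks of 1218 bp (Bry), 812 bp (Hd1_loxlox) and 3123 bp (Hd2lox), and an Hdac2 peak of 921 bp in Bry. The Hd2lox peak, at 143815905-143819027, was the widest member peak of its list and wider than 98.8% of that list, while the Hd1_loxlox peak was among the narrowest 0.494%. Eif2ak4, the amino acid sensor GCN2, had a peak of each antibody in Bry only. Eif2ak2, the double-stranded RNA kinase PKR, and Eif2ak3 had none in any list, which held for 52.2% of all genes. Of the genes for tRNA delivery outside eIF2, Eif2a was bound by Hdac1 in Bry and Hd1_loxlox and by Hdac2 in Bry, and Eif2d by Hdac1 in Bry.

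Among the Eif2, Eif3 and Eif4 groups, the Hdac1 share varied most between lines for the eIF3 genes. Of the 14 genes Hdac1 lay at 10 (Bry), 13 (Hd1_loxlox) and 4 (Hd2lox), or 71.4%, 92.9% and 28.6%. The shares of all protein-coding genes were 31.9%, 31.7% and 24.3%, so the Hd2lox share was near its background. Hdac2 lay at 7, 0 and 2, or 50%, 0% and 14.3%, against 34.4%, 2.71% and 13.5% of all genes. In Hd1_loxlox only Eif3j2, a second eIF3j gene, lacked Hdac1. In Hd2lox only Eif3a, Eif3b, Eif3f and Eif3j1 had it. Of the 10 eIF3 genes bound in Bry, all 10 were bound in Hd1_loxlox and 3 in Hd2lox (30%), against 52.1% of all Bry genes also bound in Hd2lox. Eif3g and Eif3k had Hdac1 in Hd1_loxlox only, and Eif3c, Eif3e and Eif3l in Bry and Hd1_loxlox, each without Hdac2.

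Eif3a (chromosome 19, 60761116-60790693) was the eIF3 gene with the most lists. Its Hdac1 peaks lay at 60789563-60791009 (Bry), 60789120-60790971 (Hd1_loxlox) and 60789528-60791298 (Hd2lox). Its Hdac2 peaks lay at 60789490-60791359 in Bry and 60789939-60790845 in Hd2lox. The last was 907 bp wide against 1447 to 1870 bp for the others, yet it was at percentile 72.9 of the widths in its own list. All 5 covered the start of the gene, and all but the Hd2lox Hdac2 peak covered the whole promoter printed above. Eif3j1 was the only member bound in Hd2lox by Hdac2 that had neither antibody in Bry.

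The Eif4 genes varied less between the Hdac1 lists, at 70.6 ± 11.8% (SD, n = 3), than the Eif3 genes at 64.3 ± 32.7% and the Eif2 genes at 40 ± 24%. Of the 17 genes, Hdac1 lay at 12 (Bry), 14 (Hd1_loxlox) and 10 (Hd2lox), and Hdac2 at 12, 0 and 2. The Hdac1 shares were 70.6%, 82.4% and 58.8%, against 31.9%, 31.7% and 24.3% of all genes. The Hdac2 shares were 70.6%, 0% and 11.8%, against 34.4%, 2.71% and 13.5%. Of the 12 bound in Bry, 12 were bound in Hd1_loxlox and 9 in Hd2lox (75%, against 52.1% of all Bry genes). The 9 genes of the eIF4A (without Eif4a3 and Eif4a3l1), eIF4E and eIF4G families had Hdac1 at 7, 8 and 6. They include paralogs such as Eif4g2, Eif4e2 and Eif4e1b, so they are not the eIF4F subunit genes alone. These were 77.8%, 88.9% and 66.7%, against the same shares of all genes. The helicase gene Eif4a2 kept Hdac1 in all 3 lines, whereas its paralog Eif4a1 and the exon junction helicase gene Eif4a3 had it in Bry and Hd1_loxlox. The helicase cofactor gene Eif4h had Hdac1 in all 3 lines and Eif4b in Bry and Hd1_loxlox. The Hd1_loxlox Hdac1 peak of Eif4a2 (chromosome 16, 23106914-23110399) was 3486 bp wide, the widest member peak of any list, against 1796 bp in Bry and 1323 bp in Hd2lox.

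The eIF4G scaffold genes had some of the wider peaks. Eif4g2, which encodes a scaffold that lacks the eIF4E-binding site, had Hdac1 peaks of 2094, 2133 and 2190 bp in Bry, Hd1_loxlox and Hd2lox and an Hdac2 peak of 2058 bp in Bry. The Eif4g1 peaks ran from 1538 to 2325 bp in the same 4 lists. Eif4g3 had no peak at its outer ends, but peaks of 1221 bp (Hd1_loxlox Hdac1), 1380 bp (Hd2lox Hdac1) and 1086 bp (Bry Hdac2) lay inside it over an internal RefSeq start. It was not counted as bound because those peaks missed the outer end. These were the peaks just outside the window, at 1105 to 1399 bp from the end, along with an Hd1_loxlox Hdac2 peak at 1092 bp from an end of Eif1ad and an Hd2lox Hdac2 peak at 1127 bp from Eif4e. Just inside it lay the Hd1_loxlox Hdac1 peak of Eif4e, at 928 bp.

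Of the cap-binding genes, Eif4e, Eif4e2 and Eif4e3 had Hdac1 in all 3 lines. Eif4e3 (chromosome 6, 99621879-99692873) was the member with the widest Hd2lox Hdac2 peak. Its Hdac1 peaks lay at 99691921-99693647 (Bry), 99692070-99693751 (Hd1_loxlox) and 99691568-99694068 (Hd2lox). Its Hdac2 peaks lay at 99691555-99693483 in Bry and 99691830-99693848 in Hd2lox, the latter 2019 bp wide and wider than 99.8% of that list. All of these also covered the lower end of Gpr27, a receptor gene that overlaps this end of Eif4e3, so they cannot be assigned to one of the genes. A further peak deep inside Eif4e3, 25498 and 25712 bp from its nearest end, was present in both Hd2lox lists, at 99665961-99667375 for Hdac1 and 99666201-99667161 for Hdac2. Eif4e2, which encodes a cap-binding repressor, had no Hdac2. Eif4e1b, an oocyte relative, had peaks in the Hd1_loxlox Hdac1 and Bry Hdac2 lists that lay outside the gene, within the 1000 bp window of the lower end of Tspan17.

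The eIF4E-binding proteins, which hold eIF4E away from eIF4G, included Eif4ebp2 (chromosome 10, 61428491-61452790) in 5 lists. Its Hdac1 peaks lay at 61451857-61453077 (Bry), 61451500-61453203 (Hd1_loxlox) and 61451817-61453100 (Hd2lox). Its Hdac2 peaks lay at 61451826-61453064 in Bry and 61452146-61452935 in Hd2lox. The Bry peaks of the antibodies were nearly equal in width, 1221 and 1239 bp. Eif4ebp1 had Hdac1 in all 3 lines and Hdac2 in Bry, and Eif4ebp3 had none. Eif4enif1, the eIF4E transporter gene, had Hdac1 in Hd1_loxlox and Hd2lox.

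The later-acting factors carried Hdac1 in each line at Eif5, Eif5b and Eif5a. Eif5 peaks were 2127, 2310 and 1549 bp wide for Hdac1 in Bry, Hd1_loxlox and Hd2lox, and 1689 and 827 bp for Hdac2 in Bry and Hd2lox. Eif5a, which encodes the hypusine-modified factor that helps elongation, had the widest member peaks of both Bry lists, at 69919416-69922322 for Hdac1 (2907 bp) and 69919427-69922546 for Hdac2 (3120 bp) on chromosome 11. In Hd1_loxlox and Hd2lox its Hdac1 peaks were 2163 and 1726 bp wide. Eif5a2, its paralog, had Hdac1 in Bry and Hd2lox and Hdac2 in Bry. Eif6, whose product keeps ribosomal subunits apart, had Hdac1 in Hd1_loxlox and Hdac2 in Bry.

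**Figure D3:**
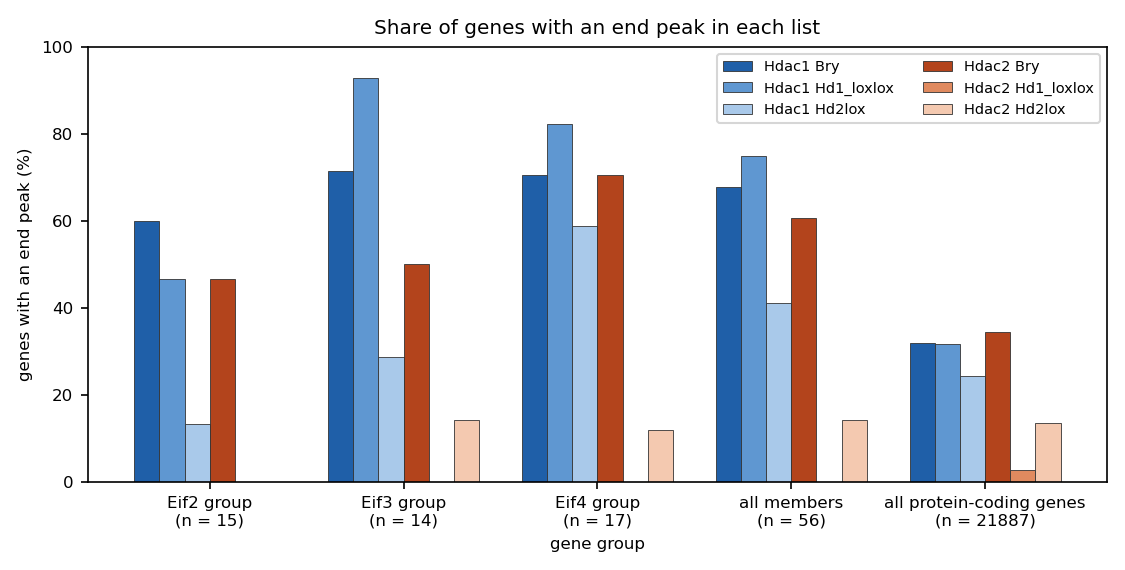
Share of genes with an end peak (y axis, %) in each of the 6 lists (bars: blue Hdac1, orange Hdac2, 1 library each, so no error bar) for the Eif2, Eif3 and Eif4 groups, all 56 members and all protein-coding genes (x axis). The Hd2lox Hdac1 bar is 13.3% for Eif2, 28.6% for Eif3 and 58.8% for Eif4 genes, against 24.3% for all protein-coding genes.

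Compared within lists, the eIF3 genes had a higher Hdac1 share than the Eif2 genes in each line, by 11.4 percentage points (Bry), 46.2 (Hd1_loxlox) and 15.2 (Hd2lox). The mean was 24.3 ± 19.1 points (SD, n = 3 lists). It was 13.3 without Hd1_loxlox and 20.7 on autosomes alone. The eIF3 and Eif4 groups did not differ beyond the spread of the lines when all peaks were used: the Eif3 share minus the Eif4 share was 0.840 points for Bry, 10.5 for Hd1_loxlox and -30.2 for Hd2lox, with a mean of -6.30 ± 21.3 (SD, n = 3), and its sign depended on the setting. With the widest 5000 peaks of each list it was -18.4 ± 3.57 points (SD, n = 3), which is larger than its spread. This was 1 of 13 alternatives, of which 3 reversed the sign, and it selects peaks by width, so it does not measure presence alone. The lists with 1 library each and 14 to 17 genes a group allow no finer statement. In at least 2 lines Hdac1 was at 40% of Eif2, 78.6% of Eif3 and 76.5% of Eif4 genes, where 30.2% of all genes were called.

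Most Hdac1 peaks of the Eif2 and Eif3 genes were missing from Hd2lox. Of 38 members with Hdac1 in Bry, 33 (86.8%) had it in Hd1_loxlox, against 79.6% of all Bry genes, and 20 (52.6%) in Hd2lox, against 52.1%. By group the share kept in Hd2lox was 1 of 9 Eif2, 3 of 10 Eif3 and 9 of 12 Eif4 genes, besides all 3 Eif1 and all 4 Eif5 genes. All 23 members with Hdac1 in Hd2lox had it in another line too, against 79.6% of all Hd2lox genes. Of 34 members with Hdac2 in Bry, 7 (20.6%) had it in Hd2lox, against 27.9% of all Bry Hdac2 genes, and 0 of the 7 Eif2 genes did.

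The antibodies were also compared within each line. In Bry, 32 of the 34 Hdac2 members (94.1%) had Hdac1 as well, against 76.4% of all Hdac2 genes, and the exceptions were Eif4e1b and Eif6. Of the 38 Hdac1 members in Bry, 32 (84.2%) had Hdac2, close to the 82.4% of all genes with Hdac1 there. The 6 members with Hdac1 alone in Bry were Eif2d, Eif2s3x, Eif3c, Eif3e, Eif3l and Eif4e2. In Hd1_loxlox 0 of the 42 Hdac1 members had Hdac2, against 4.53% of all genes with Hdac1 there. In Hd2lox all 8 Hdac2 members had Hdac1, against 93.1% of all genes with Hdac2 there. They were 34.8% of the 23 Hdac1 members, against 51.6% of all genes with Hdac1 there.

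Peak width was the only size that the lists give. The median width of member peaks was 1448, 1441 and 1476 bp for Hdac1 in Bry, Hd1_loxlox and Hd2lox, close to the 1414, 1498 and 1462 bp of all end peaks. For Hdac2 it was 1392 bp in Bry and 879 bp in Hd2lox, against 1376 and 889 bp. The means of the list medians were 1455 ± 18.5 bp for Hdac1 (SD, n = 3) and 1136 ± 363 bp for Hdac2 (SD, n = 2, since the Hd1_loxlox list held no member). The difference of 319.5 bp was less than the spread between the Hdac2 lists, and it was 52.5 bp without Hd2lox. Where a member had both peaks, Hdac1 was wider at 22 of 32 in Bry (68.8%, against 53% of all genes with both) and at 8 of 8 in Hd2lox (against 99.3%).

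Where a strand was known, the peaks sat at the 5′ end. It was known for 44 of the 56 genes, and at these every one of the 113 end peaks lay at the 5′ end and 0 at the 3′ end. Of the 12 genes without a strand, Eif6 had Bry Hdac2 peaks near both ends, at 155818604-155819597 and 155825407-155827303 on chromosome 2. The first also overlapped end windows of BC029722 and Mmp24. Among all bound genes with a strand, 92.5% to 96.1% had a peak at the 5′ end in the 5 lists that held members. The peak covered the outermost start in 105 cases (92.9%) and some RefSeq start in 112 (99.1%). Its centre lay a median of 233 bp into the gene, and 94 of the 113 centres were downstream of the start. The 4 Eif4e peaks lay 644 to 928 bp from the outer start and covered an internal start at 138527268 on chromosome 3. At the 41 members bound in at least 2 lists, the widest end peaks of those lists had a common span, of 519 to 1981 bp (median 1031). A call already requires a peak near a gene end, so such overlap is largely built in. It was not compared with all genes.

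**Figure D4:**
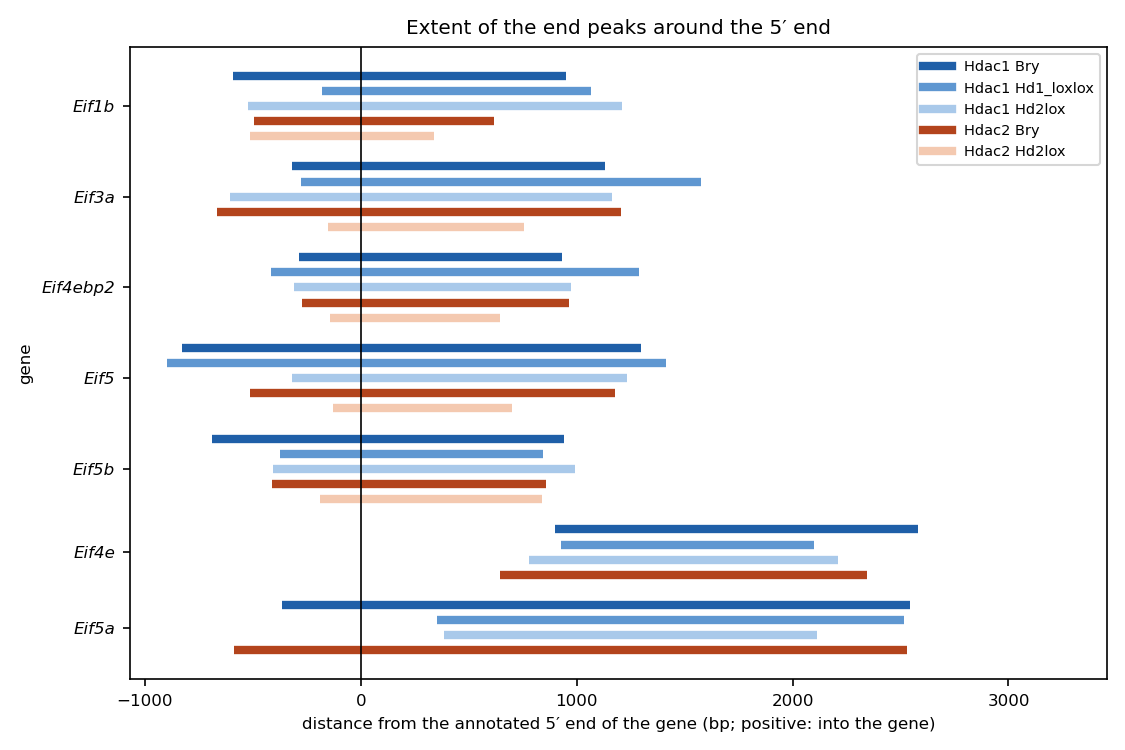
Extent of the end peaks (horizontal bars, coloured by list) in bp from the annotated outermost 5′ end (x axis; positive values lie in the gene) for the 5 members with a known strand in 5 lists and for Eif4e and Eif5a (y axis). The bars of the first 5 genes cross the start, and the 4 Eif4e bars begin 644 to 928 bp inside the gene.

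Several members had another gene close by. At 14 of the 47 bound members at least 1 peak also overlapped the window of 1000 bp around an end of another protein-coding gene, as for Eif2a with Serp1, Eif2b1 with Gtf2h3, Eif2b4 with Snx17, Eif3i with Tmem234, Eif4a1 with Senp3 and Eif5b with Txndc9. In Bry all end peaks were shared at 9 of 38 Hdac1 members (23.7%, against 33.4% of all Hdac1 genes) and at 10 of 34 Hdac2 members (29.4%, against 29.9%). In Hd1_loxlox the Hdac1 share was 28.6%, against 31.5%. In Hd2lox the members lay higher, at 26.1% against 21.9% for Hdac1 and 37.5% against 17.7% for Hdac2. With shared peaks left out, Hdac1 lay at 29, 30 and 17 members and Hdac2 at 24, 0 and 5. Over all protein-coding genes, the same rule left out 2332 of 6989 Hdac1 genes in Bry, 2182 of 6934 in Hd1_loxlox and 1164 of 5315 in Hd2lox. For Hdac2 it left out 2255 of 7532, 133 of 594 and 520 of 2946.

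The 250-base promoters of 37 bound members had a median G and C content of 59.2% and 19 CpG, against 62% and 18 for all bound genes with a promoter in the RefSeq table. The 7 unbound members with a promoter had 53.6% and 12, and all 17486 genes 55.2% and 10. Unbound here means without an end peak. The 7 include Eif4g3 (66.8% and 32), whose window lay inside its internal peaks described above. They also include Eif1ax and Eif2s3y on the sex chromosomes, where most genes were in no list. Among the 37 bound members, all Eif4e peaks lay outside its window (54.8% and 7). So did the Hd1_loxlox and Hd2lox Hdac1 peaks of Eif5a (41.2% and 8). A GC box was present in 28 of 37 bound members (75.7%) and 3 of 7 unbound ones, against 64.1% of bound and 42.7% of all promoters. The E-box occurred in 7 of the 37 (18.9%, against 8.99% of bound and 6.66% of all promoters) and the ETS motif in 12 (32.4%, against 22.6% and 15.2%). The NF-Y motif was in 11 (29.7%, against 35.3% and 36.5%), and the YY1, NRF1 and CGCG motifs were in 2 each (5.41%, against 4.02%, 5.56% and 3.8% of bound promoters). A match of letters is no evidence of a bound factor.

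The 9 members without an end peak were Eif1ax, Eif2ak2, Eif2ak3, Eif2s1, Eif2s3y, Eif3j2, Eif4a3l1, Eif4ebp3 and Eif4g3. Of these, Eif1ax is on chromosome X, where 89.3% of genes were in no list, and Eif2s3y on chromosome Y, where 99.6% were. On the autosomes 7 of 53 members were in no list (13.2%), against 49.9% of genes, and Hdac1 was in at least 2 lines at 37 (69.8%), against 31.9%.

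Other genes of translation and its control were counted in the same way. Of 35 such genes outside the rule (elongation and release factors, poly(A)-binding proteins, and the mTOR and stress pathways), the Bry, Hd1_loxlox and Hd2lox lists had Hdac1 at 23, 19 and 10, and Hdac2 at 21, 0 and 3. Over all protein-coding genes the shares were also lower in Hd2lox than in Bry, at 24.3% against 31.9% for Hdac1 and 13.5% against 34.4% for Hdac2. Hdac1 was in at least 2 lines at 19 (54.3%, against 30.2% of all genes) and Hdac2 at 3 (8.57%, against 10.6%). The poly(A)-binding protein gene Pabpc1, the S6 kinase gene Rps6kb1 and the release factor gene Gspt1 were in the same 5 lists as Eif3a. Only 10 of the 35 were in no list, where 52.2% of all protein-coding genes were. These were Mcts1, Mknk1, Mknk2, Rps6kb2, Pdcd4, Ddx3x, Atf4, Eef1a2, Eef2 and Gspt2. Mcts1, Ddx3x and Gspt2 are on chromosome X, where 89.3% of genes were in no list.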

How the data were processed

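Each of the 6 ChIP libraries had 1 deposited list of peak positions (chromosome, start and end on mm10) made by the authors, with no score or count. The submitters' processing notes name Bowtie2 2.2.9, SAMtools 1.3.1, MACS2 2.1.1.20160309 and bcl2fastq. The sources used here do not state a threshold or how the inputs entered. The 3 inputs were not analysed here.

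Gene ends came from a RefSeq table of GRCm38.p6, and strand, starts and promoter sequences from a RefSeq promoter table, which held 44 of the 56 genes. Python 3.11.15 with NumPy 2.4.6 was used. A peak overlapping a window of 1000 bp either side of a gene end by 1 bp or more made a call. The calling was tested on simulated peaks. Every member is accounted for by role. Positions are given for members in 6 lists, for those in 5 lists in the Eif2, Eif3 or Eif4 groups, and for the widest member peak of each list.

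Members, lists and tests were chosen with earlier results of these data known. The planned exact permutation p-values over lists are therefore not given for counts of members, and with 3 against 3 they could not fall below 0.1. The antibodies were paired by cell line, which the labels give. The labels do not say that lines were grown separately, so the spread may be technical. Alternatives were windows of 500 and 2000 bp, an overlap of 200 bp, the 5′ end only, the widest 5000 peaks, leaving out lines or a list, strict factor genes, pairing, and, chosen after seeing the data, unshared peaks (outside the windows of other gene ends), internal starts and autosomes.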

Additional observations from a re-analysis of the deposited data

How the results depend on the processing

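The difference of 20.3 members between Hdac1 and Hdac2 kept its sign in all 14 alternatives (9.5 to 28.5), and pairing the lines (replicate block) gave 20.3 ± 19.6 members (SD of 3 lines). Leaving out 1 line changed the count of members with Hdac1 in at least 2 lines from 37 to between 20 and 33 (22 without Bry, 20 without Hd1_loxlox). The Hdac2 count changed from 7 to between 0 and 7. Both remaining lines were then required, and the Hd1_loxlox Hdac2 list held 0. Of all 21887 genes, the Hdac1 count fell from 6606 to 5561 without Hd2lox and to 3639 without Hd1_loxlox. Hdac2 without Hd1_loxlox was at 9.61% of all genes. The other settings have no count over all genes here. The Hdac2 count was 4 with the widest 5000 peaks and 4 with peaks outside the windows of other gene ends (unshared peaks). The excess of the Eif3 over the Eif2 share held in 13 alternatives (13.3 to 30.7 points). The Eif3 share minus the Eif4 share, -6.30 points, turned to 1.54 with a window of 500 bp and 4.20 with unshared peaks, was -18.4 with the widest 5000 peaks, ranged from -14.7 to 5.67 without 1 line, and was -6.30 with no replicate block. The cause was not tested. The width difference of 319.5 bp ranged from 52.5 to 579.5 bp without 1 line and was 326.5 bp with the lines paired. Depth is unknown, so an absent peak is not evidence of absent protein.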
